A study of Mus musculus with 8 samples.

Results

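The genes described here are the kinesin motors of the mouse, taken as every RefSeq gene whose symbol begins with Kif and a digit or with Kifc. The rule gave 42 genes, split by symbol into 12 mitotic kinesins (Kif2c, Kif4, Kif11, Kif14, Kif15, Kif18a, Kif18b, Kif20a, Kif20b, Kif22, Kif23 and Kifc1) and 30 others that mostly carry cargo or serve cilia. Of these, 40 had a matched probe (57 probes) and 37 were measured among the 26300 features tested, that is, 11 of the 12 mitotic and 26 of the 30 other kinesins. Kif14 and Kif28 had no matched probe. Kif13b, Kif2b and Kif9 had probes on the array, but none was well above background on 4 of the 8 arrays. A probe for the pseudogene Kif4-ps, well above background on 0 arrays, was kept apart.

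RNA came from whole CD-1 embryos, an outbred stock, explanted on gestational day 9. Their dams had received 400 mg/kg hydroxyurea or saline 3 h earlier, given intraperitoneally, with 4 samples in each group. Hydroxyurea blocks ribonucleotide reductase and so the supply of deoxyribonucleotides for DNA replication. The 1-colour Agilent arrays, 1 a sample, lay on 2 slides that each held 2 arrays of either group, and the series' title places the study in p53 signalling. Between 48.5% (hydroxyurea 3) and 62.2% (saline 1) of probes were well above background, and the 75th percentile of signal used for scaling ran from 249 (hydroxyurea 3) to 516 (saline 2). The whole embryo is a mixture of cell types, so fewer cells of a type and less RNA per cell cannot be told apart.

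Kinesins are motors that use ATP to walk along microtubules or to take them apart. The mitotic members build the bipolar spindle, move chromosomes and organise the midzone where the cell divides, and their messages are known to peak in G2 and mitosis. The transport members haul vesicles, organelles and ciliary cargo through cells that need not divide. Cell cycle genes of late phases often carry a short promoter element near the start of transcription, the cell cycle genes homology region (CHR), with CCAAT boxes upstream of it, and are repressed through it when p53 is active. Genes of G1 and S phase more often carry E2F sites.

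Promoter windows from RefSeq (GRCm38.p6) ran from 250 bases before to 50 after each start and were found for 11 mitotic kinesins (11 windows) and 22 other kinesins (26 windows). They were searched on both strands for the CHR core TTTGAA, the CCAAT box CCAAT and the E2F sites TTTGGCGC, TTTCCCGC, TTTCGCGC and TTTGCCGC. A CHR match lay in 10 of 11 mitotic windows and in 4 of 26 other windows, beside 17.9% of all 32851 windows of this length. Wholly within 30 bases of the start, the match was present in 8 mitotic windows and 1 other window, against 2.9% of all. CCAAT was found in 7 mitotic and 10 other windows (37.4% of all). E2F letters were found in 2 mitotic windows, Kif15 and Kif18a, and in 0 other windows (2.26% of all). Such a match is a stretch of letters and not a measured binding site.

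The promoters of the mitotic kinesins that the expression results turn on are shown from base -90 to base 29 (0 is the first transcribed base), 5′ to 3′ on the gene's strand, with every motif match in capitals. Kif11, Kif23 and Kif4 are the called falls and Kif18b has groups that did not overlap. Kif22 and Kif20b hold the CHR letters near the start but passed no test.
Kif11 (chr19:37376292-37376411, plus strand): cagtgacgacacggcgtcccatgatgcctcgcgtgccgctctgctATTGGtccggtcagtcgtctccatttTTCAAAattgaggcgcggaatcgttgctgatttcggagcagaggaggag
Kif23 (chr9:61946770-61946889, minus strand): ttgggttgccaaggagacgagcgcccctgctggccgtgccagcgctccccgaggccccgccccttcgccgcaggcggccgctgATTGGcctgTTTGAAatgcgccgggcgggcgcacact
Kif4 (chrX:100625975-100626094, plus strand): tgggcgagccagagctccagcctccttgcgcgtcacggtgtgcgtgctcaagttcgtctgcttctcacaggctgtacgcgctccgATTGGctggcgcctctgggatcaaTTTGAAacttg
Kif18b (chr11:102925095-102925214, minus strand): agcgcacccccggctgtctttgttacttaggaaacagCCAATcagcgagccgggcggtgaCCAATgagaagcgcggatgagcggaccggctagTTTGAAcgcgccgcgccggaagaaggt
Kif22 (chr7:127042391-127042510, minus strand): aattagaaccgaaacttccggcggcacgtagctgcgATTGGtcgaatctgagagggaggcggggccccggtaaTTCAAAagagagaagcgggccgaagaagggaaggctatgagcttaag
Kif20b (chr19:34922268-34922387, plus strand): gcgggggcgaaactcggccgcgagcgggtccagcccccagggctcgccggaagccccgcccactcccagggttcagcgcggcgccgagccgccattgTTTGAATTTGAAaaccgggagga

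In Kif11 and Kif22 the CHR letters read TTCAAA because they lie on the opposite strand, and Kif20b holds the core in a tandem pair. Kif15, the mitotic kinesin that rose, and Kif18a are shown for their E2F letters. Kif15 holds GCGCCAAA, the reverse complement of the E2F letters TTTGGCGC, directly next to a CHR match. Kif18a is the mitotic kinesin whose window lacks the CHR letters. Kif3c, the transport kinesin that fell, is shown as the contrasting case and holds no match to any of the motifs in this stretch.
Kif15 (chr9:122950991-122951110, plus strand): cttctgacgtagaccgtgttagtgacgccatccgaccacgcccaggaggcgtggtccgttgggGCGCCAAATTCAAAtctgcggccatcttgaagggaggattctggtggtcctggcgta
Kif18a (chr2:109280648-109280767, plus strand): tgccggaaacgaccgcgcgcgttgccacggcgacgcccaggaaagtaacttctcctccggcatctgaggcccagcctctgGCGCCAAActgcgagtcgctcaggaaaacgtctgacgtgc
Kif3c (chr12:3365042-3365161, plus strand): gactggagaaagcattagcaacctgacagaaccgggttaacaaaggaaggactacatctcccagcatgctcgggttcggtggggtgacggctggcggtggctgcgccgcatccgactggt

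**Figure D1:**
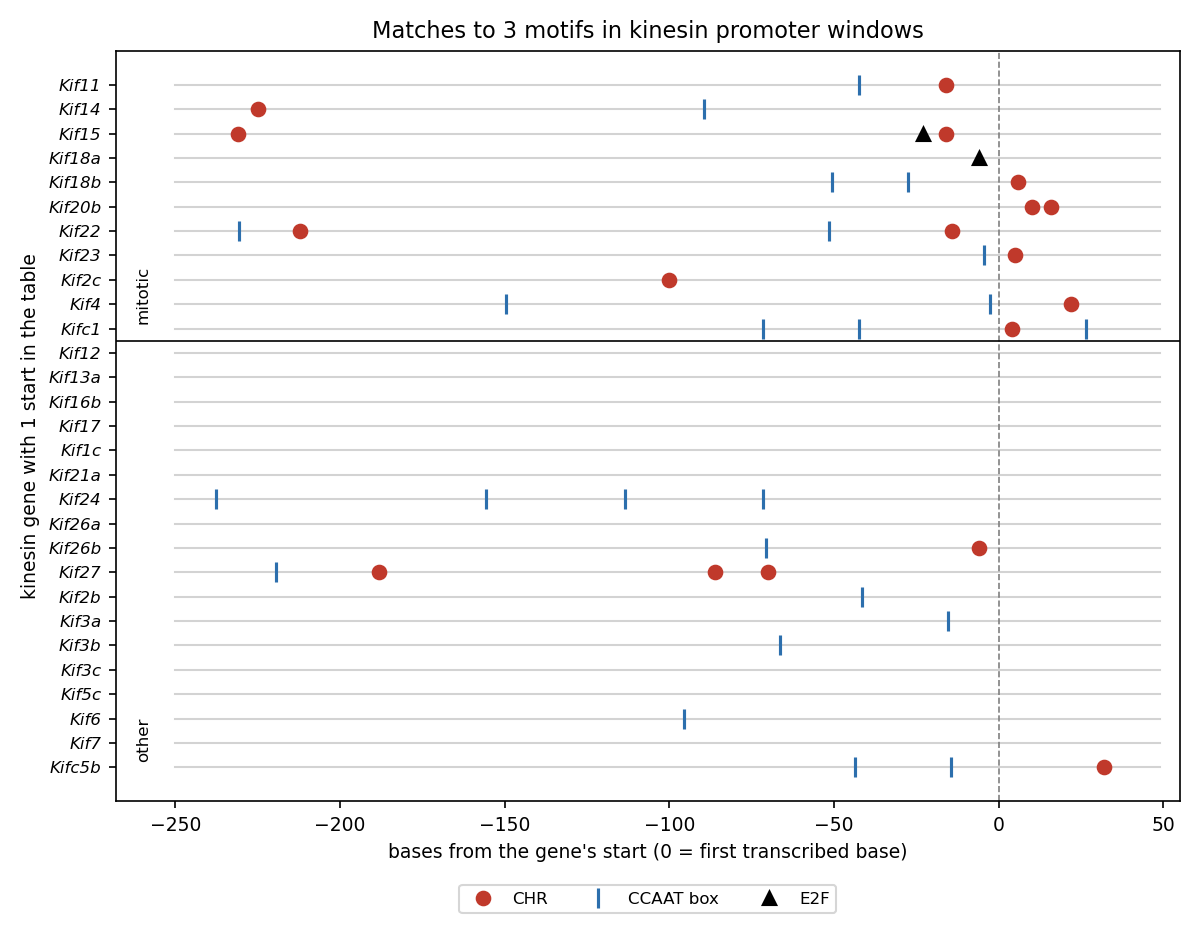
Position of each motif match from 250 bases before to 50 after the start of transcription (horizontal axis, bases) in the promoter windows of the kinesins that have 1 start in RefSeq (1 row a gene), with genes of several starts not drawn. CHR matches (circles) sit wholly within 30 bases of the start in 8 mitotic windows and in 1 other window, that of Kif26b.

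The main comparison asked how the 2 classes of motor differed between hydroxyurea and saline embryos. Among the 11 measured mitotic kinesins, Kif11 (NM_010615), Kif23 (NM_024245) and Kif4 (NM_008446) fell and Kif15 (NM_010620) rose. These 3 falls of 11 are 27.3%, beside 4.78% of all 26300 features called lower and 2.1% of the named genes, and 1 rise of 11 is 9.09%, beside 2.69% of all features called higher. In either direction 7.47% of all features were called. Among the 26 other kinesins, Kif3c (NM_008445) fell and Kifc5b (NM_053173) rose. Each is 1 of 26 or 3.85%, close to the shares of all features, so the calls do not set the other kinesins apart. The median log2 difference (hydroxyurea minus saline) was -0.298 for the mitotic kinesins, 0.223 for the others and 0.0221 for all features (0.101 for named genes). Below 0 lay 9 of 11 mitotic and 9 of 26 other kinesins, beside 38.5% of named genes. Calls here and throughout are limma's, with a Benjamini-Hochberg adjusted p under 0.05 over all features.

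On the scaling and the filter the calls depended in part. Centring arrays on their median moved the median of all features from 0.0221 to 0.14 and ended the calls of Kif11 (adjusted p 0.0533), Kif4 (0.155) and Kif15 (0.084). Without the filter on dim probes, Kif11 (0.0602), Kif4 (0.111), Kif15 (0.174) and Kifc5b (0.0951) did not pass. Kif23 and Kif3c passed under both. Within 1 slide alone, with 2 arrays a group, no kinesin passed limma's threshold. At an unadjusted p under 0.05, 1 mitotic and 3 other kinesins passed on slide 1, and 5 mitotic and 3 other on slide 2. The share of all features at that unadjusted level is not given.

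**Figure D2:**
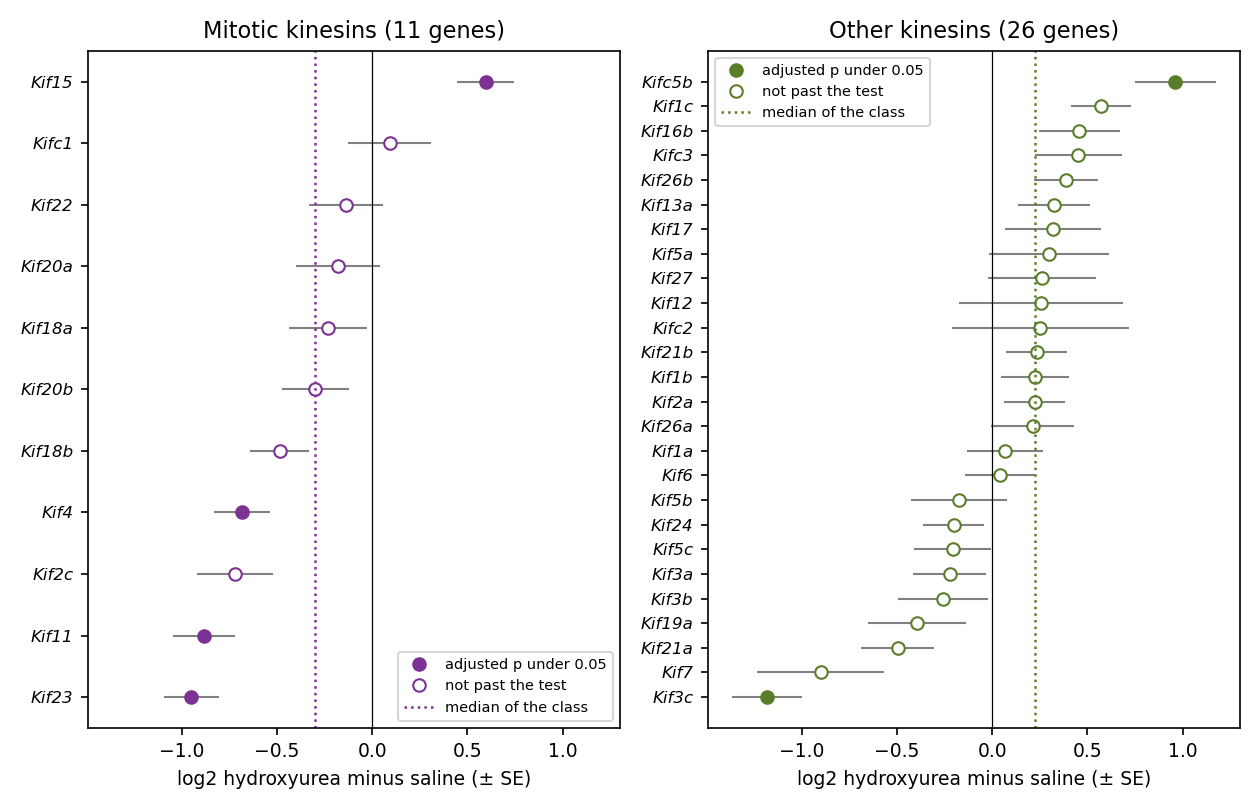
Log2 difference, hydroxyurea minus saline, with its SE for each of the 37 measured kinesins (n = 4 arrays a group), mitotic and other kinesins drawn separately and called genes marked. Mitotic differences run from -0.949 (Kif23) to 0.596 (Kif15), and other kinesins from -1.18 (Kif3c) to 0.96 (Kifc5b).

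The groups did not overlap for 5 mitotic kinesins that were lower (Kif11, Kif23, Kif4, Kif2c and Kif18b) and 1 that was higher (Kif15), while 8.90% of all features were separated downward and 7.44% upward, 16.3% in all. Of the others, Kif3c, Kif7 and Kif21a were separated downward and Kifc5b, Kif1c and Kif16b upward. The mean difference from saline over the 11 mitotic kinesins was -0.208, -0.478, -0.329 and -0.397 on hydroxyurea arrays 1 to 4, and 0.0449, -0.0432, 0.0675 and -0.0692 on the saline arrays. By this mean, all hydroxyurea arrays were below all saline arrays. The median over the same 11 genes was -0.00518, -0.625, -0.355 and -0.4 on hydroxyurea arrays 1 to 4. On saline arrays 1 to 4 it was 0.0617, -0.0484, 0.0263 and -0.0363, so by the median hydroxyurea 1 lay within the saline range. On hydroxyurea arrays 1 to 4, 5, 9, 7 and 9 of the 11 genes were below their lowest saline value. For the 26 others the means were 0.12, -0.0133, -0.0304 and 0.138 under hydroxyurea and -0.00844, -0.0753, -0.0535 and 0.137 under saline, and the groups overlapped. Members of a class share the arrays, so these means are a description and were not tested. The median difference was -0.323 on slide 1 and -0.309 on slide 2 for the mitotic kinesins, and 0.193 and 0.104 for the others.

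**Figure D3:**
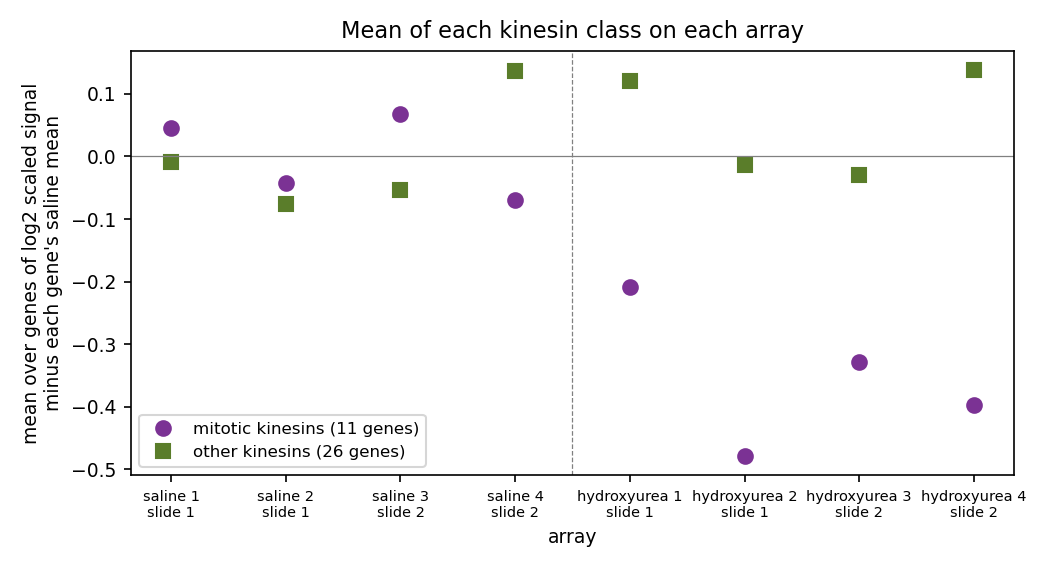
Mean log2 value of the 11 mitotic and the 26 other kinesins on each array, relative to each gene's saline mean (vertical axis), by array. The mitotic mean is between -0.478 and -0.208 on the hydroxyurea arrays and between -0.0692 and 0.0675 on the saline arrays.

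Spindle assembly was represented first by Kif11, the motor that slides antiparallel microtubules apart and so separates the poles. Its log2 values relative to the array's 75th percentile were 0.48, 0.86, 0.65 and 0.45 under hydroxyurea and 1.58, 1.26, 1.67 and 1.46 under saline. Every hydroxyurea value lay below every saline value. Kif11 fell by 0.88 ± 0.16 (SE, n = 4 and 4), which is 1.85-fold, with a limma adjusted p of 0.0131. Without hydroxyurea 4 the adjusted p was 0.0505.

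Kif15, which binds the same spindle microtubules and can hold the poles apart when Kif11 activity is low, had values of 1.77, 1.37, 1.56 and 1.70 under hydroxyurea and 1.15, 1.04, 0.85 and 0.98 under saline. Its direction was thus the opposite of that of Kif11, and its groups did not overlap. Kif15 rose by 0.60 ± 0.15 (1.51-fold, limma adjusted p 0.0449), the mitotic call closest to the threshold. The call was lost with slide as a block (adjusted p 0.0666) and when any array other than hydroxyurea 2 was left out (0.0789 to 0.138). The difference was 0.477 on slide 1 and 0.714 on slide 2.

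Kifc1 walks toward microtubule minus ends and focuses the spindle poles. Its values were 2.48, 2.52, 1.89 and 2.96 under hydroxyurea and 2.31, 2.32, 2.39 and 2.46 under saline, with a difference of 0.091 ± 0.22 (adjusted p 0.83). The hydroxyurea arrays lay on both sides of the saline arrays.

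Chromosome movement is the work of the chromokinesins and the motors at microtubule ends. Kif4, a chromokinesin that also limits the length of the midzone with Prc1, had values of 0.96, 0.89, 0.70 and 0.79 under hydroxyurea and 1.58, 1.38, 1.71 and 1.40 under saline. The groups were fully separated. Kif4 fell by 0.68 ± 0.15 (1.61-fold, limma adjusted p 0.0245). The call was lost without hydroxyurea 1, 3 or 4 or saline 1, 2 or 3 (adjusted p 0.0508 to 0.0817). Kif22, the other chromokinesin, pushes chromosome arms away from the poles. It had values of 5.01, 4.45, 5.23 and 4.82 against 5.07, 4.91, 5.25 and 4.85, a difference of -0.14 ± 0.20 (adjusted p 0.702), and the groups overlapped.

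Kif2c removes tubulin from microtubule ends at centromeres, where it corrects faulty attachments. Its values were 0.43, 0.45, 0.57 and 0.17 under hydroxyurea and 1.46, 0.93, 1.37 and 0.72 under saline. The groups did not overlap, and the spread was wider under saline (SD 0.35) than under hydroxyurea (SD 0.17). The difference of -0.72 ± 0.20 missed the threshold (adjusted p 0.0625). It passed without saline 4 (adjusted p 0.0481), with normexp (0.0297), with the filter on all 8 arrays (0.0458) and with a trend in eBayes. With quantile normalization it was also counted as called, with an adjusted p of 0.05 when rounded. Its other probe gave -0.66 (adjusted p 0.138).

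Kif18b, which acts on the ends of astral microtubules, had values of 0.31, 0.18, 0.40 and 0.17 under hydroxyurea and 0.48, 0.75, 0.95 and 0.83 under saline. All hydroxyurea arrays were lower, and the difference of -0.49 ± 0.15 did not pass (adjusted p 0.0899; 0.0474 with quantile normalization). Its relative Kif18a, which damps chromosome oscillation at the metaphase plate, had 0.94, 0.06, 0.72 and 0.35 against 0.81, 0.83, 0.77 and 0.57. Here the groups overlapped and only hydroxyurea 2 and 4 were below the saline range (-0.23 ± 0.21, adjusted p 0.521).

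The midzone and abscission motors form a further group. Kif23 is the motor of centralspindlin, the complex that bundles midzone microtubules and directs the cleavage furrow. Its values were 1.04, 1.32, 1.23 and 0.95 under hydroxyurea and 2.11, 2.07, 2.01 and 2.16 under saline and the groups were far apart. Kif23 fell by 0.95 ± 0.14 (1.93-fold, limma adjusted p 0.00609), the lowest p among the mitotic kinesins. It passed the threshold whichever single array was left out. Kif20a, which brings Aurora B to the midzone, had values of 5.03, 4.00, 4.57 and 4.35 against 4.89, 4.61, 4.62 and 4.54 (-0.18 ± 0.22, adjusted p 0.658). Kif20b, a late motor of cell division, had 2.93, 2.29, 2.53 and 2.59 against 2.72, 3.07, 2.81 and 2.93 (-0.30 ± 0.17, adjusted p 0.316). In both genes hydroxyurea 1 lay within or above the saline range and the groups overlapped.

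**Figure D4:**
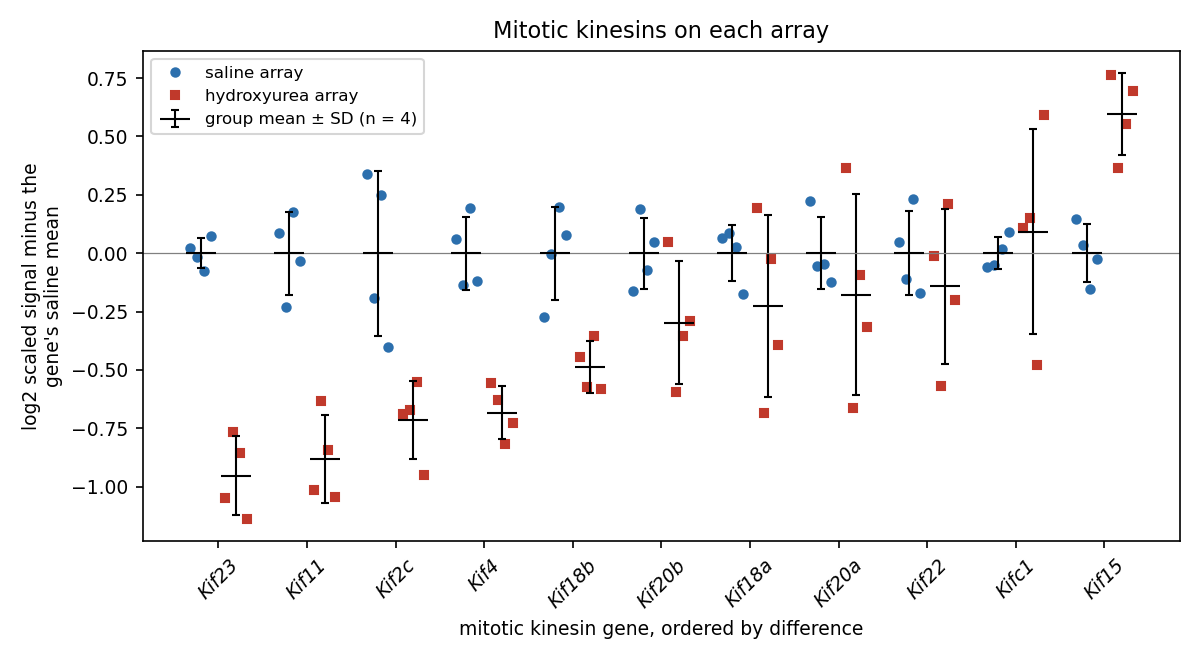
Scaled log2 value minus the gene's saline mean (vertical axis) of each measured mitotic kinesin on the 4 hydroxyurea and 4 saline arrays, 1 point an array. Kif11, Kif23, Kif4, Kif2c and Kif18b have all hydroxyurea points below the saline points, Kif15 has them above, and the other 5 overlap.

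Of the 10 mitotic kinesins whose promoter window holds CHR letters, 9 were measured, of which 3 fell (Kif11, Kif23 and Kif4), 1 rose (Kif15) and 5 did not pass. Among them, Kif2c holds the letters only at base -103. With the letters within 30 bases of the start, Kif11, Kif23 and Kif4 fell and Kif15 rose. Kif18b (-0.49), Kif20b (-0.30), Kif22 (-0.14) and Kifc1 (0.091) did not pass. The part of the letters in these differences was not tested. Kif4, Kif11 and Kif23 are also the 3 mitotic falls listed, with Kif15 and Kif3c, among the 1346 probes of the authors' deposited table. Its mean differences were -0.89 for Kif11, -0.955 for Kif23, -0.689 for Kif4, 0.59 for Kif15 and -1.19 for Kif3c in the authors' deposited table. Kifc5b, called higher here, is not in that table, which was made from the same arrays.

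Among the transport kinesins, Kif3c showed the largest fall. Kif3c is a kinesin-2 motor, best known in neurons, that pairs with Kif3a or with itself. Its values were 0.31, 0.49, 0.54 and 0.42 under hydroxyurea and 1.39, 2.10, 1.49 and 1.50 under saline. Saline 2 stood above the other saline arrays, and every hydroxyurea array was below all of them. Kif3c fell by 1.18 ± 0.18 (2.27-fold, limma adjusted p 0.00704), and it was called whichever single array was left out. On slide 1 the difference was -1.35 and on slide 2 -1.01. The other members of its subfamily passed no test. Kif3a and Kif3b, the pair that drives intraflagellar transport, had differences of -0.22 and -0.26 (adjusted p 0.505 and 0.531), and the dendritic motor Kif17 had 0.32 (adjusted p 0.468). A further probe of Kif3a gave -0.51 (limma adjusted p 0.192), with every hydroxyurea array below every saline array. The further probe of Kif3b gave -0.33 (0.512), and its groups overlapped.

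Kifc5b is a close relative of Kifc1, the spindle pole motor. Its values were -1.13, -1.55, -1.45 and -0.75 under hydroxyurea and -2.47, -2.19, -2.15 and -1.91 under saline, with no overlap. Kifc5b rose by 0.96 ± 0.21 (1.95-fold, limma adjusted p 0.0281). The call was lost without hydroxyurea 1 or 4 or saline 1, 2 or 3 (adjusted p 0.0714 to 0.0821) and with normexp background correction (0.574, adjusted p 0.0639). The promoters of the pair are nearly the same sequence: shifted by 28 bases, 239 of 272 bases (87.9%) are identical. Signal of one gene on the probe of the other was not tested, so the difference is uncertain. Kifc1, by its own probe, had 0.091.

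The aligned stretches of the pair are shown to make the likeness visible. The Kifc5b stretch ends at the first base of its CHR match, which begins 29 bases after the start.
Kifc1 (chr17:33890625-33890723, minus strand): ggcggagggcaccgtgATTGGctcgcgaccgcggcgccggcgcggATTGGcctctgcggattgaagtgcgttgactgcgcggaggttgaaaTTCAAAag
Kifc5b (chr17:26917029-26917120, plus strand): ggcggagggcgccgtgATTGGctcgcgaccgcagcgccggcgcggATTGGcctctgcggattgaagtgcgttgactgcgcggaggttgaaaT

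Kif7, which sits at the ciliary tip and regulates Hedgehog signalling, had values of 0.41, 0.41, -1.14 and 0.15 under hydroxyurea and 1.13, 0.66, 0.73 and 0.92 under saline. The groups did not overlap, but hydroxyurea 3 lay far below the rest, and the difference of -0.90 ± 0.33 did not pass (adjusted p 0.135). Without hydroxyurea 3 it was -0.535 (adjusted p 0.127). Kif21a, which restrains microtubule growth at the cell cortex, had 0.68, 0.66, 0.55 and 0.57 against 0.94, 0.96, 0.91 and 1.64. Saline 4 alone was high, and the difference was -0.50 ± 0.19 (adjusted p 0.143), or -0.321 without that array (adjusted p 0.221).

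Separated in the opposite direction was Kif1c, a fast vesicle motor, with 2.59, 2.57, 2.41 and 2.56 under hydroxyurea and 1.89, 2.16, 2.11 and 1.68 under saline. Its difference of 0.57 ± 0.16 missed the threshold (adjusted p 0.0584; 0.0317 with a trend in eBayes), and its other probes gave 0.29 and 0.02. Kif16b, a motor of early endosomes, had -0.03, -0.66, -0.25 and -0.66 against -0.78, -1.31, -0.67 and -0.68 (0.46 ± 0.21, adjusted p 0.219). Its lowest hydroxyurea values of -0.66 nearly met its highest saline value of -0.67.

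The remaining transport motors did not pass the test and had overlapping groups. The conventional heavy chains Kif5a, Kif5b and Kif5c, which move mitochondria and vesicles, had differences of 0.30, -0.17 and -0.21. Of the kinesin-3 vesicle motors, Kif1a had 0.067, Kif1b 0.22 and Kif13a 0.33. Kifc2 and Kifc3, minus-end motors, had 0.25 and 0.45, the latter from 7 arrays because the spot of hydroxyurea 2 was marked as an outlier.

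Kinesins of cilia and centrioles also passed no test. Kif27 and Kif6, of motile cilia, had 0.26 and 0.042, Kif19a, which sets ciliary length, had -0.40, and Kif24, a centriolar depolymerase, had -0.20. Kif2a, which takes microtubules apart in neurons and at spindle poles, had 0.22. Kif21b had 0.23, Kif12 0.26, and Kif26a and Kif26b, which lack motility, 0.21 and 0.39. For the transport and ciliary kinesins with overlapping groups outside the kinesin-2 subfamily, the adjusted p ran from 0.189 (Kif26b) to 0.913 (Kif6). Without hydroxyurea 2, Kif26b passed (0.508, adjusted p 0.0434). Of the 9 measured kinesins with further probes past the filter, 8 of 11 other probes had the same sign as the gene's chosen probe and 3 the opposite, in Kif5a (-0.35), Kif2a (-0.32) and Kif6 (-0.44).

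The proteins that work with the mitotic kinesins on the spindle were examined as a list. It also held the transcription regulators Foxm1, Mybl2 and Lin54, with differences of -0.22, 0.47 and 0.39. They enter its counts and its median. Of 28 spindle and midzone partners, 7 fell and 0 rose, where 4.78% of all features were called lower and 2.69% higher. Below 0 lay 22 of the 28, beside 47.8% of all features and 38.5% of named genes, and the median was -0.403 (0.0221 over all features). At an unadjusted p under 0.05, 14 were lower and 2 higher. The share of all features at that unadjusted level is not given. Unadjusted counts, here and in the lists below, are therefore a description only. Hmmr, a spindle assembly factor, fell by 1.22 ± 0.13 (adjusted p 0.00141), Tpx2, which nucleates spindle microtubules and binds Kif11, by 1.17 ± 0.15 (0.00296), and Prc1, the midzone bundler that recruits Kif4, by 1.19 ± 0.19 (0.00704).

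Racgap1, the partner of Kif23 in centralspindlin, had values of 2.78, 2.49, 2.74 and 2.18 under hydroxyurea and 3.74, 3.56, 3.82 and 3.34 under saline. It fell by 1.07 ± 0.19 (limma adjusted p 0.0112), so the RNA of both subunits was lower in all hydroxyurea arrays. The proteins were not measured. Cenpe, a kinesin of the kinetochore that the symbol rule leaves out, had 4.46, 3.70, 4.14 and 3.95 against 4.61, 4.84, 4.83 and 4.98. It fell by 0.76 ± 0.19 (adjusted p 0.0431) with no overlap. Aurka, a kinase of the spindle poles, and Nusap1, a microtubule bundler, fell by 0.96 and 0.80 (adjusted p 0.0399 and 0.0216). Racgap1, Cenpe, Aurka and Nusap1 were named after their values were seen.

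The partners of transport motors gave 0 calls in every list by limma, where 7.47% of all features were called and 47.8% lay below 0. At that share a list of their size holds few calls, so 0 does not set them apart. Of 23 measured light chains, adaptors and regulators, 13 lay below 0 (median -0.023), with 2 lower and 2 higher at an unadjusted p under 0.05. The lowest p belonged to the lysosome adaptors Arl8b (0.54, adjusted p 0.0766) and Arl8a (0.52, 0.105). Cytoplasmic dynein and dynactin, the opposing motor, had 29 measured members, 12 below 0 (median 0.128), and 1 lower and 4 higher unadjusted, led by Bicd1 (0.72, adjusted p 0.0644) and Hook3 (0.62, 0.0785).

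Of 17 tubulins, the track itself, 11 lay below 0 (median -0.0744), with 1 lower and 1 higher unadjusted: Tuba1c had -0.53 (adjusted p 0.167) and Tubb6 0.56 (0.0979). Of 22 components of the intraflagellar transport complexes, 8 lay below 0 (median 0.175), with 0 lower and 3 higher unadjusted, and Wdr35 (0.45, adjusted p 0.0966) and Ift122 (0.44, 0.142) had the lowest p.

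**Figure D5:**
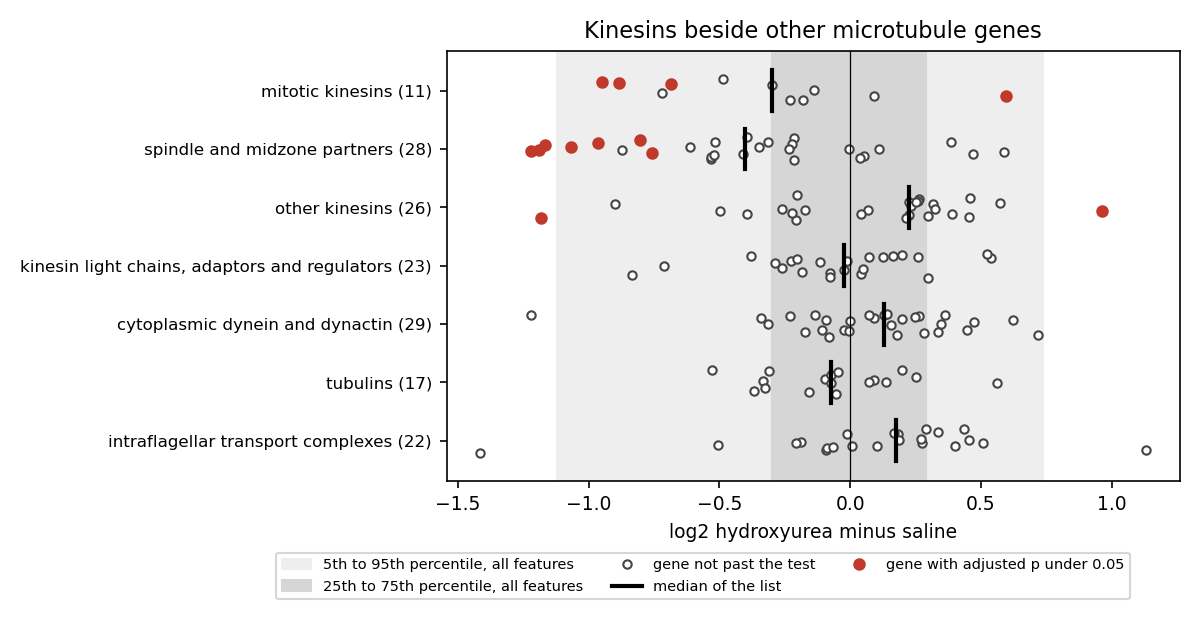
Log2 difference, hydroxyurea minus saline, of each measured gene (points) and the median (line) for the kinesin classes and the lists of microtubule genes, called genes filled, over bands from the 5th (-1.12) to the 95th (0.736) and the 25th (-0.298) to the 75th (0.288) percentile of all features. The spindle and midzone partners have a median of -0.403, near the -0.298 of the mitotic kinesins, and the other lists lie between -0.0744 and 0.223.

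Markers of cell types were read beside the kinesins, as the embryo holds many. Members of each marker list for nerve, heart, blood, vessel and mesoderm were measured. The 9 neuronal markers, of the tissue in which Kif3c, Kif5a and Kif1a are best known, gave 0 calls (0 at an unadjusted p under 0.05), with array means of -0.309 to 0.415 under hydroxyurea and -0.658 to 0.695 under saline. All 6 markers of neural progenitors, a dividing population, lay below 0 (median -0.352; 0 called, 2 lower unadjusted), with array means of -0.5 to -0.0724 under hydroxyurea and -0.167 to 0.118 under saline, which overlap. The part of these cells in the lower mitotic kinesins was not tested. Beside the 7.47% of all features called (2.69% higher), markers of motile cilia had 1 call of 4, Foxj1, which rose by 1.09 (adjusted p 0.0309). The motile cilia kinesins Kif6 and Kif27 did not pass. Kif27 was well above background on only 3 hydroxyurea and 2 saline arrays. Kif6 had mean log2 values of -3.38 under hydroxyurea and -3.42 under saline. Heart muscle had 1 call of 6 (Myh7, 0.63, adjusted p 0.0296).

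The 5 endothelial, 6 primitive erythroid, 6 yolk sac endoderm, 5 paraxial mesoderm and 3 decidual markers measured gave 0 calls, lists too short to set against 7.47% of all features, with 3, 2, 0, 2 and 1 passing an unadjusted p of 0.05. Array means of yolk sac markers ran from -2.85 to 0.438 under hydroxyurea and -1.92 to 2.37 under saline. Those of maternal decidua ran from -0.0369 to 4.02 and from -1.19 to 0.742, with Prl8a2 at 2.40 and 6.03 on hydroxyurea 2 and 3 and between -7.51 and -2.03 on the other arrays. All 6 kinesin calls stood without hydroxyurea 2. Without hydroxyurea 3, Kif23, Kif11, Kif3c and Kifc5b kept theirs, and Kif4 (adjusted p 0.0626) and Kif15 (0.0828) did not. The part of these tissues in the kinesin differences was not tested.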

How the data were processed

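The members and gene lists were chosen with earlier results of these data known. Groups came from the sample labels, which speak of 4 independent experiments without tying samples to them or to litters. What a p-value measures here is sample-to-sample spread, which may be technical. The deposited scanner files hold Cy3 intensity values that the authors made with Agilent Feature Extraction 11.5.1.1, background-subtracted and not scaled between arrays, per the file headers and the submitters' processing notes. The authors' deposited table of 1346 probes holds log2 values, centred on each probe's median over arrays. How its probes were tested is not stated in any label or header.

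The 55681 probes lay on 59305 spots of an array. The 3671 control spots and 151 to 315 outlier spots were dropped. Saturated spots numbered 0. The log2 processed signal minus the array's 75th percentile was averaged over a probe's spots. Probes well above background on at least 4 of 8 arrays were kept (30758). RefSeq accessions gave 26576 probes 1 symbol, 0 several and 29105 none. Of several probes to a gene the brightest on average was used, and each unnamed probe counted by itself, giving 26300 features (14653 named genes). Hydroxyurea was compared with saline in limma 3.58.1 (R 4.3.3), by lmFit and eBayes (two-sided, Benjamini-Hochberg over all features). SE is that of the fit. The number of arrays limits precision. Levels of different probes were not compared.

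Alternatives were normexp (offset 50), quantile normalization, median centring, no filter, a filter on all 8 arrays, the mean of a gene's probes, slide as a block, each slide alone, eBayes with a trend and leaving out each array. Normexp used the median spot signal, where the mean had been planned, because the mean column is not in the scanner files used. The text names all mitotic kinesins, the called other kinesins, the other kinesins with separated groups, and in each microtubule list 3 called genes (those of lowest p), or 2 genes where 0 passed. The steps were tested on simulated data.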

Additional observations from a re-analysis of the deposited data

Results flagged for a closer look

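In 6 of 73 groups of 4 arrays (Kifc3 under hydroxyurea, with 3 values, was not looked at), 1 array stood apart from the other 3 by Dixon's criterion (gap to the nearest array over the range of the group), where chance gives about 1 in 20. All 6 were transport or other kinesins. Saline 2 was high for Kif3c (2.10, ratio 0.847) and low for Kif16b (-1.31). Hydroxyurea 3 was low for Kif7 (-1.14), for Kif1c (2.41, ratio 0.838) and for Kif12 (-4.31, ratio 0.856). Saline 4 was high for Kif21a (1.64, ratio 0.928). The measured mitotic kinesins gave 0 such arrays. Of these genes only Kif3c was called, and without saline 2 it was still called (-1.02, limma adjusted p 0.014).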

How the results depend on the processing

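In all 19 settings, the reported one included, the median difference was below 0 for the mitotic kinesins and above 0 for the others. The count of mitotic falls, 3 as reported, was 5 with quantile normalization, 1 with median centring and 1 without the filter. Other kinesins called, 2 as reported, were 1 with normexp and 1 without the filter, and their median moved from 0.223 to 0.342 with median centring. Without the filter 867 features were called, against 1964. With slide 1 alone limma called 53 features, 0 mitotic and 0 other kinesins (1 mitotic and 3 other at an unadjusted p under 0.05). With slide 2 alone it called 3 features, 0 mitotic and 0 other kinesins (5 mitotic and 3 other unadjusted). The median of the others was 0.104 on slide 2. Both slides have only 2 arrays a group.

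Leaving out 1 array gave 879 (without hydroxyurea 4) to 4435 (without hydroxyurea 2) features called, 1 (without hydroxyurea 4) to 4 (without saline 4) mitotic falls and 1 to 3 other kinesins called. The mitotic median ran from -0.412 to -0.201, that of the others from 0.129 to 0.232 and their difference from -0.573 to -0.351. The cause was not tested. With only the probes well above background on all 8 arrays, 52.9% of calls were lower, against 64% as reported.

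Signs turned only for genes that did not pass: Kif5a (-0.0266) and Kif6 (-0.198) with the mean of probes, Kif1a (-0.105) and Kif27 (-0.0944) on slide 1, and Kifc1 (-0.00602), Kif5b (0.243), Kif6 (-0.141), Kif26a (-0.0318), Kif12 (-0.0826) and Kifc2 (-0.308) on slide 2. With 1 array left out, ranges crossed 0 for Kif6 (-0.0386 to 0.177), Kif22 (-0.256 to 0.00493), Kif5b (-0.402 to 0.0214), Kifc1 (-0.0736 to 0.283), Kif1a (-0.0677 to 0.201) and Kif12 (-0.00359 to 0.673). The arrays whose loss turned the sign were hydroxyurea 1 and saline 2 for Kif6, hydroxyurea 2 for Kif22 and Kif5b, hydroxyurea 4 for Kifc1, hydroxyurea 4 and saline 3 for Kif1a, and saline 3 for Kif12. Of the values for single kinesins under the alternatives, 595 kept direction and side of the threshold, 40 lost the call, 9 gained one and 18 turned sign. No paired analysis was possible because the labels give no replicate numbers. Slide as a block ended the call of Kif15 (adjusted p 0.0666) and no other kinesin call.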
